A study of Mus musculus with 6 samples.

Results

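The genes described here are 10 adhesion genes of the B-cell surface, 7 integrin subunits (Itgal, Itgb2, Itga4, Itgb1, Itgb7, Itgav and Itga6) and 3 ligands of adhesion receptors (Icam1, Icam2 and Selplg). They were chosen by name from the 46963 gene names of the count table, and all 10 were among the 14600 genes with enough counts to be tested. CD43- B-cells from the spleens of 3 genotypes (wt, 3′RR-deficient and Eμ-deficient) were sequenced as RNA, either as resting cells or after 2 days with 5 μg per ml of lipopolysaccharide (LPS), a bacterial product that activates B-cells. Eμ and the 3′ regulatory region (3′RR) are enhancers at either end of the constant genes of the immunoglobulin heavy chain locus, which contains none of the 10 genes. The Eμ deletion also removed the matrix attachment regions beside the enhancer. Both deletions are germline, so that every cell of the mouse carries them, and the mutant and wt mice were young adults of a 129 background. Each of the 6 groups is 1 library, from the pooled cells of 2 mice. Resting cells also spent 2 days in culture per the labels, in medium alone, whereas by the methods of the study they were taken before stimulation. If so, LPS and the time in culture cannot be told apart in any comparison of LPS with resting libraries.

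An integrin is a pair of an α and a β subunit in the membrane, and signals inside the cell switch it from a bent to an extended form that binds its ligand. Itgal (αL) and Itgb2 (β2) form LFA-1, which binds the ICAM proteins, and Itga4 (α4) pairs with Itgb1 (β1) to bind VCAM-1 and fibronectin or with Itgb7 (β7) to bind MAdCAM-1 of the gut vessels. In the spleen, LFA-1 and α4β1 hold B-cells of the marginal zone in place, and α4β7 serves homing to gut tissue. Selplg encodes PSGL-1, the mucin that selectins bind once it has been glycosylated and sulfated.

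The 10 genes did not move as a family when B-cells were activated by LPS. Itgb1 was the 1 gene that rose, 2.65-fold, while Itgb7, Itga6, Itga4, Itgb2 and Icam2 fell by between 1.62-fold and 4.99-fold. Itgav, Itgal, Icam1 and Selplg did not pass the test. By edgeR's quasi-likelihood test with p-values adjusted over the whole table after Benjamini and Hochberg, 1 of 10 was called higher, where 19.7% of all genes were, and 5 of 10 were called lower, where 21.1% of all genes were. The median log2 fold change of the 10 genes was -0.62, beside -0.07 over all genes tested. The model has a term for genotype and one for the culture state, so its error is the departure of the 3 genotype pairs from a common LPS effect and not the spread between mice.

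**Figure D1:**
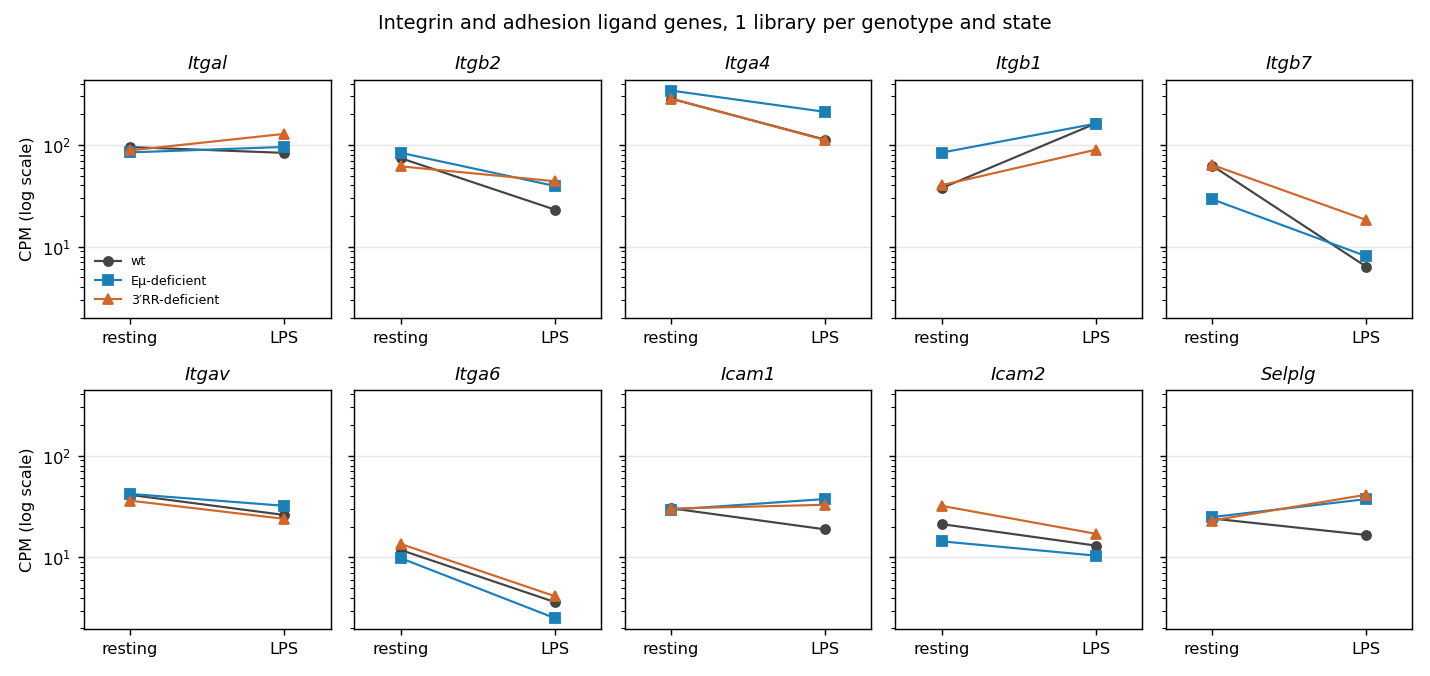
Level of each of the 10 genes in each library, in TMM-scaled CPM (log scale), with a line from the resting to the LPS library of each genotype and 1 library per point. All 3 lines rise for Itgb1 and all 3 fall steeply for Itgb7 and Itga6, whereas the wt line runs opposite to both mutant lines for Itgal, Icam1 and Selplg. For Icam1 the 3′RR-deficient rise was small, at a log2 ratio of 0.12 with a 95% counting interval of -0.08 to 0.33.

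The promoters of 5 of the 10 genes (Itga4, Itgav, Itgb1, Icam1 and Itgb7) were found in the RefSeq promoter table of build GRCm38.p6, as windows from 250 bases before to 50 bases after the annotated start. 3 of them are printed, those of Itgb1 and Itgb7, which moved farthest and in opposite directions, and that of Icam1, whose known NF-κB element can be read in it. Capitals mark CACCC on either strand, the core of the site of Krüppel-like factors, in the windows of Itgb1 and Itgb7, GGGCGG (the GC box) in that of Itgb1, and GGNNNTTCC on either strand and TATAAA (the TATA box) in that of Icam1.
Itgb1, chr8:128685404-128685703, plus strand: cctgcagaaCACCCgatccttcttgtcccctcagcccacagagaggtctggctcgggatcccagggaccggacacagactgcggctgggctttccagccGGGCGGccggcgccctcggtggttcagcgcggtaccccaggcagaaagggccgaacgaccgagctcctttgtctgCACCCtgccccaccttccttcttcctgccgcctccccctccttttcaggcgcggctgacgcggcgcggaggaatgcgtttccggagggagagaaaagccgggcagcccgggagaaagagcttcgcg
Itgb7, chr15:102231886-102232185, minus strand: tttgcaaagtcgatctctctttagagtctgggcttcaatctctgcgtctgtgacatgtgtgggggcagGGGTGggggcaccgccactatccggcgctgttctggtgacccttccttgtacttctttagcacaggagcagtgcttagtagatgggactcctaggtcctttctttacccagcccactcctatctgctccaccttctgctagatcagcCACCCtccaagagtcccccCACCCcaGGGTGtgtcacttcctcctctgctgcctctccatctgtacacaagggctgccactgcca
Icam1, chr9:21015690-21015989, plus strand: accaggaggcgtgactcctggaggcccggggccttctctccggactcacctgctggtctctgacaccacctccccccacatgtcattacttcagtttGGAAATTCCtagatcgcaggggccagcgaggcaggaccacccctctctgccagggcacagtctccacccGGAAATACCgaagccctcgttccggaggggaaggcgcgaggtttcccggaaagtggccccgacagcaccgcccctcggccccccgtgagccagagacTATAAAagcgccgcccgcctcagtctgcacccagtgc

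The Icam1 window holds GGAAATTCC from its base 98, counted from the 5′ end, and a TATA box from base 264, and a second match of GGNNNTTCC lies on the other strand from base 167. GGAAATTCC occurs in 0.322% of the 27025 promoter windows of the table, GGNNNTTCC in 18.4% and TATAAA in 8.88%. The Icam1 window ends close to the start of the gene in the GENCODE annotation, at 21015985, so that it covers almost no transcribed sequence of that annotation. The Itgb7 window holds CACCC at 4 places and no GGGCGG. The Itgb1 window holds CACCC at 2 places, GGGCGG at 1 and 1 uncapitalised match of GGNNNTTCC from base 87. CACCC occurs in 56.7% of all windows and GGGCGG in 35.9%, so none of these matches sets the 2 genes apart, and a match of letters is not evidence that a factor was bound.

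Itgb1, the β subunit shared by the widest set of α subunits, lies at chr8:128685654-128733200 on the plus strand. Levels are given as CPM, the counts divided by a scaled library size. In resting libraries Itgb1 measured 37.6 CPM in wt, 84.1 CPM in Eμ-deficient and 40.2 CPM in 3′RR-deficient B-cells. In LPS libraries it measured 163, 162 and 89.8 CPM in the same order. The groups did not overlap, although the highest resting library (Eμ-deficient) and the lowest LPS library (3′RR-deficient) were close to each other. The log2 fold change was 1.40 ± 0.29 (SE, adjusted p = 0.00473). The pairs gave log2 ratios of 2.11 in wt, 0.95 in Eμ-deficient and 1.16 in 3′RR-deficient cells. Itgb1 was called under each of the 12 alternative settings of the fit.

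Itgb7, the β subunit of the gut homing integrin α4β7 and of αEβ7, lies at chr15:102215995-102231944 on the minus strand. It measured 62.7, 29.3 and 63.8 CPM in resting wt, Eμ-deficient and 3′RR-deficient libraries. After LPS it measured 6.36, 8.06 and 18.3 CPM in the same order. The highest LPS library lay well below the lowest resting one, and the fitted fall was the steepest of the 10 genes, although in the Eμ-deficient pair Itga6 fell slightly further. The log2 fold change was -2.32 ± 0.34 (SE, adjusted p = 0.000883), and the pairs gave -3.30 in wt, -1.86 in Eμ-deficient and -1.80 in 3′RR-deficient cells. The 3 pairs spanned 1.50 log2 units, a span that 7.69% of the 6524 genes with at least 100 counts in every library reached. Itgb7 itself had 86 counts in the Eμ-deficient LPS library, so it was not among them and carried more counting error there. Once the trend on GC content was taken out, the wt ratio was -2.61 and the mutant ratios were -1.88 and -1.90.

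Itga4, the α subunit that both of these β subunits share, lies at chr2:79255426-79333123 on the plus strand and had the most counts of the 10 genes in the 3 resting libraries and the Eμ-deficient LPS library. It measured 285, 343 and 286 CPM in resting wt, Eμ-deficient and 3′RR-deficient libraries, and 113, 212 and 111 CPM after LPS. Every LPS library lay below every resting one, and the Eμ-deficient library was the highest in both states in CPM. With the trend on GC content removed, its log2 ratio to wt at rest was -0.10, beside 0.27 without. The ratio of 3′RR-deficient to wt after LPS was then 0.63, beside -0.02 without. The log2 fold change was -1.13 ± 0.27 (SE, adjusted p = 0.00899). Without the 3′RR-deficient pair the adjusted p was 0.0539, and with the trend on transcript length removed the log2 fold change was -0.70 with an adjusted p of 0.0524. Cerkl, on the opposite strand, shares 1124 bases of exon with Itga4, and Itgav and Icam1 share 634 and 511 bases with noncoding genes of the opposite strand, but the counts were of the sense strand.

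Levels can be compared between genes only per length, here as CPM per kb of merged exons. On this scale the 3 β subunit genes changed places. Itgb1 held 16.4% of their summed level in resting wt cells, 35.1% in Eμ-deficient and 18.6% in 3′RR-deficient cells, and 80.1%, 71.5% and 51.1% after LPS. Itgb7 held 40.3%, 18.0% and 43.4% at rest and 4.61%, 5.23% and 15.4% after LPS. The share of Itgb2 was 43.3%, 46.8% and 38.1% at rest and 15.2%, 23.3% and 33.5% after LPS. Itgb1 thus passed from the lowest share to the highest in wt and 3′RR-deficient cells, and from the middle to the highest in Eμ-deficient cells. The shares were not corrected for the trend on GC content, in which the genes and libraries differ.

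**Figure D2:**
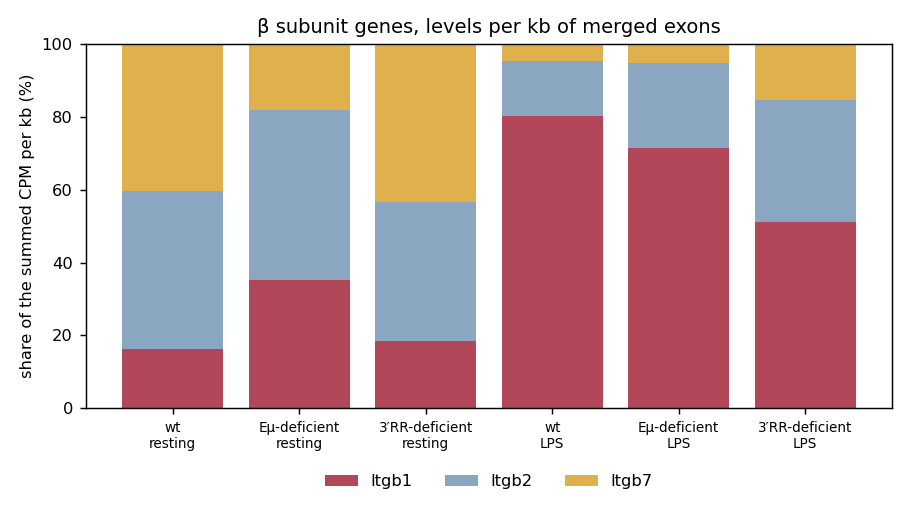
Stacked bars of the share that Itgb1, Itgb2 and Itgb7 held of their summed level (CPM per kb of merged exons) in each library, in percent. The Itgb1 share lies between 16.4% and 35.1% in the resting libraries and between 51.1% and 80.1% in the LPS libraries.

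The log2 ratio of Itgb1 to Itgb7, per kb, was -1.29 in wt, 0.96 in Eμ-deficient and -1.22 in 3′RR-deficient resting cells. After LPS it was 4.12, 3.77 and 1.74. The states did not overlap, and the means differed by 3.73, with a two-sided exact permutation p of 0.1, the smallest that 3 libraries against 3 allow. The log2 ratio of Itga4 to Itgb1 went the other way, from 1.14, 0.25 and 1.06 at rest to -2.31, -1.39 and -1.46 after LPS in wt, Eμ-deficient and 3′RR-deficient cells (exact permutation p = 0.1). The log2 ratio of Itga4 to Itgb7 was -0.15, 1.21 and -0.17 at rest and 1.81, 2.38 and 0.27 after LPS, higher in each of the 3 pairs although the states overlapped (exact permutation p = 0.2). Itgb1 alone separated the states upward, and Itgb7 and Itga4 alone separated them downward. The ratios of Itgb1 with either gene therefore had to separate too, and their p-values add nothing to the single genes. These permutations did not use the pairing by genotype. 8 such ratios were computed, and with 3 libraries a state none could fall below 0.1.

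Itgal, at chr7:127296260-127335138 on the plus strand, encodes the α subunit of LFA-1 and was among the steadiest of the 10 genes. It measured 95.3, 84.5 and 88.4 CPM in resting wt, Eμ-deficient and 3′RR-deficient cells and 83.6, 95.6 and 129 CPM after LPS. The ranges overlapped, and only the 3′RR-deficient LPS library stood above the rest. The log2 fold change was 0.18 (95% interval -0.37 to 0.73, adjusted p = 0.587), which leaves room for a rise or a fall of modest size.

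Itgb2, its partner, is also the β subunit of the myeloid integrins and lies at chr10:77530252-77565708 on the plus strand. It measured 74.2, 83.8 and 61.6 CPM in resting wt, Eμ-deficient and 3′RR-deficient cells and 23.1, 39.5 and 44.0 CPM after LPS. The groups did not overlap, and the log2 fold change was -1.08 ± 0.27 (SE, adjusted p = 0.0123). Without the Eμ-deficient pair the adjusted p was 0.0583. The subunits of LFA-1 changed order: the log2 ratio of Itgal to Itgb2, per kb, was -0.75, -1.09 and -0.58 at rest and 0.75, 0.17 and 0.44 after LPS in wt, Eμ-deficient and 3′RR-deficient cells. Itgb2 was thus the higher of the pair at rest and Itgal after LPS, in each genotype, and the states did not overlap (exact permutation p = 0.1).

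The 2 LFA-1 ligands behaved differently from each other. Icam1, an immunoglobulin-like membrane protein induced by inflammatory signals in many cells, lies at chr9:21015985-21028817 on the plus strand. It measured 30.4, 29.4 and 30.2 CPM in resting wt, Eμ-deficient and 3′RR-deficient cells, the tightest values of the 10 genes, and 18.8, 37.5 and 32.9 CPM after LPS. The wt library went down and the Eμ-deficient library up, and the log2 fold change was -0.07 (95% interval -0.66 to 0.52, adjusted p = 0.845). Icam2, a ligand with fewer immunoglobulin domains that resting lymphocytes already carry, lies at chr11:106377656-106388075 on the minus strand. It measured 21.2, 14.4 and 32.1 CPM at rest and 13.1, 10.4 and 17.1 CPM after LPS, lower in each of the 3 pairs although the groups overlapped.

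The log2 fold change of Icam2 was -0.70 ± 0.24 (SE, adjusted p = 0.0409), the weakest of the 6 calls. It was lost without the Eμ-deficient pair (adjusted p = 0.155), without the 3′RR-deficient pair (0.228), without the term for genotype (0.115), without a filter on low counts (0.0575) and with DESeq2 (0.0556), 5 of 12 alternatives. Over the alternatives of Icam2 the adjusted p ranged from 0.0182 to 0.228.

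Itgav and Itga6 are α subunits of receptors for the extracellular matrix, αv binding vitronectin and related ligands and α6 binding laminin. Itgav, at chr2:83724397-83806916 on the plus strand, measured 41.2, 42.1 and 36.1 CPM in resting wt, Eμ-deficient and 3′RR-deficient cells and 26.1, 32.1 and 23.9 CPM after LPS. Every LPS library was below every resting one, but the log2 fold change of -0.55 ± 0.22 (SE) did not pass, with an adjusted p of 0.0708. With the trend on GC content removed it was -0.60 with an adjusted p of 0.0241, and with the trend on transcript length removed it was -0.24 with an adjusted p of 0.402. The former was the 1 alternative of 12 under which Itgav was called. Itga6, at chr2:71745616-71858416 on the plus strand, was the lowest of the 10 genes, at 11.8, 9.84 and 13.6 CPM at rest and 3.63, 2.53 and 4.15 CPM after LPS. Those LPS values rest on 76, 27 and 37 counts. Its log2 fold change was -1.78 ± 0.28 (SE, adjusted p = 0.00132), with pairs of -1.70, -1.96 and -1.71 that lay closer together than those of any of the other 9 genes.

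Selplg, at chr5:113818536-113832644 on the minus strand, measured 24.1, 24.9 and 23.0 CPM in resting wt, Eμ-deficient and 3′RR-deficient cells and 16.6, 37.4 and 41.3 CPM after LPS. It fell in the wt pair and rose in both mutant pairs, with a log2 fold change of 0.30 (95% interval -0.37 to 0.98, adjusted p = 0.441). Without the wt pair the log2 fold change was 0.72 with an adjusted p of 0.00706.

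**Figure D3:**
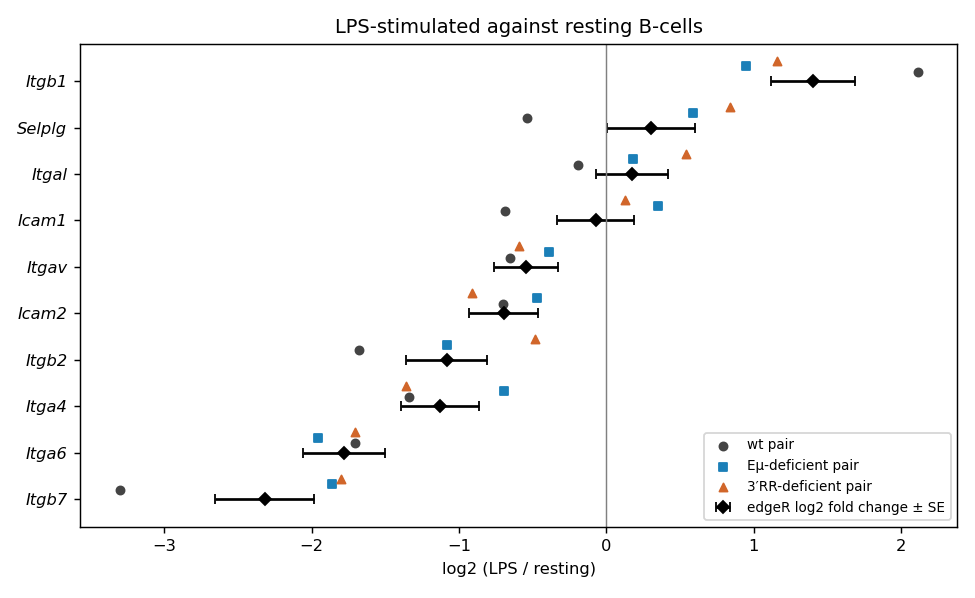
Log2 ratio of LPS to resting for each of the 10 genes, with the edgeR log2 fold change and its SE as black diamonds and bars and the ratio of each genotype's pair of libraries as coloured points. The points of Itga6 lie between -1.96 and -1.70, while those of Itgb7 spread from -3.30 to -1.80 and those of Selplg lie on both sides of 0.

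Without a test, 5 of the 10 genes (Itgb2, Itga4, Itgb7, Itgav and Itga6) had all 3 LPS libraries below all 3 resting libraries, as 27.3% of all genes tested did, and Itgb1 had all 3 above, as 25% of all genes did. Without the 3′RR-deficient pair Itgb1 was still called higher and Itgb2, Itgb7 and Itga6 lower. Without the wt pair Itgb1 and Selplg were called higher and the same 5 genes as with all pairs lower. As a measure of technical differences between libraries, the log2 ratios of LPS to resting of 35 spike-in RNAs had an SD of 0.78 in the wt pair, 0.13 in the Eμ-deficient pair and 0.63 in the 3′RR-deficient pair. For the mean of the 3 pairs, in which opposite deviations cancel, the SD was 0.087.

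Ordered by median level per kb, the resting cells had Itgb2 (24.3 CPM per kb), Itgb7 (22.6) and Itga4 (20.5) at the top, followed by Itgal, Icam2, Itgb1, Icam1, Selplg and Itgav, with Itga6 last at 1.31. The ranges of the first 3 overlapped one another, as did those of Itgal, Icam2 and Itgb1. After LPS the order was led by Itgb1 (39.7 CPM per kb), and its lowest library exceeded the highest of every other gene. Itgal followed at 14.6 and Itgb2 at 13.0, with overlapping ranges, and Itgb7 dropped to the eighth place at 2.91. Itga6 was again last, at 0.40. The lengths of merged exons exceed those of single transcripts, and with the length of the longest transcript instead 11 of the 20 places moved and Itga4 came first at rest.

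The pattern of each gene over the 6 libraries was compared with all genes tested as the root mean square difference of centred log2 CPM, and the nearest 2 are named without any reading of shared function. Itgb1 was closest to Bcl2a1d (0.066) and St8sia6 (0.12), and Itgb7 to Xylt1 (0.13) and Arhgef18 (0.20). Those nearest to Itgal were Emc1 and Zfp64, to Itgb2 Plk3 and Rab11fip1, to Itga4 9930111J21Rik2 and RP23-20K24.9, and to Itgav Blcap and Pcyt1a. Itga6 was nearest to Gm42820 and A430110C17Rik, Icam1 to Mcts2 and Wdtc1, Icam2 to Ssbp2 and Gga2, and Selplg to Jak3 and Ddit4. Among the 10 genes themselves Icam1 and Selplg were the most alike, at 0.24, and Itgb1 and Itgb7 the least, at 2.14. These differences describe 6 libraries that differ in depth and in base composition, which enter the patterns of all genes.

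None of the 10 genes was called for the deletion of either enhancer over both states. For the 3′RR-deficient libraries 0 of 10 were called, where 0.678% of all genes were, and the adjusted p lay between 0.915 and 0.999. The log2 fold changes ranged from -0.42 for Itgb1 to 0.68 for Itgb7, and the interval of Itgb7 ran from -0.20 to 1.57. For the Eμ-deficient libraries 0 of 10 were called, where 1.16% of all genes were, with fold changes from -0.48 for Itgb7 to 0.60 for Itga4 and an interval of -0.13 to 1.33 for Itga4. In both comparisons 0 of 10 had an unadjusted p under 0.05 with edgeR, where 831 (3′RR) and 1266 (Eμ) of the 14600 genes did. DESeq2 also called 0 of 10 and had 0 of 10 under an unadjusted p of 0.05, where 730 (3′RR) and 1034 (Eμ) of the 14600 genes did. Both comparisons use the same wt libraries, and 1 library per state on each side leaves changes of about the width of these intervals undetected.

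Within a state each genotype is 1 library, so the ratios to wt have no test. Their 95% intervals (exact conditional binomial) cover counting error only. As a measure of what differs between libraries for technical reasons, 35 spike-in RNAs with at least 100 counts in every library were compared in the same way. Around their median, their log2 ratios to wt had an SD of 0.48 in the Eμ-deficient and 0.16 in the 3′RR-deficient resting library, and of 0.44 and 1.27 in the LPS libraries.

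At rest, 2 of the 10 genes differed from wt by at least 1 on the log2 scale in the Eμ-deficient library, as 18.2% of all genes did. Itgb1 was higher by 1.16 (interval 1.02 to 1.30) and Itgb7 lower, at -1.10 (-1.27 to -0.93). With the trend on GC content removed these ratios were 0.97 and -0.71. Spike-ins in this comparison lay from -0.47 to 1.30 about their median, a range that holds the ratio of Itgb1 and not that of Itgb7. In the 3′RR-deficient resting library 0 of 10 passed this size, as 9.33% of all genes did, and the farthest was Icam2 at 0.60 (0.41 to 0.78).

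After LPS, 1 of the 10 genes passed in the Eμ-deficient library, as 12.5% of all genes did. This was Selplg at 1.17 (0.96 to 1.38), with Icam1 just under the limit at 0.99. In the 3′RR-deficient library 2 of 10 passed, as 26.6% of all genes did. These were Itgb7 at 1.52 (1.19 to 1.87) and Selplg at 1.32 (1.10 to 1.53), while Itgb1 was at -0.86 (-0.97 to -0.75). Spike-ins in the latter comparison lay from -3.37 to 1.40 about their median. With the trend on GC content removed, Itgb7 was at 0.77 and Selplg at 1.13 in the 3′RR-deficient library, and Selplg was at 1.13 in the Eμ-deficient one.

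**Figure D4:**
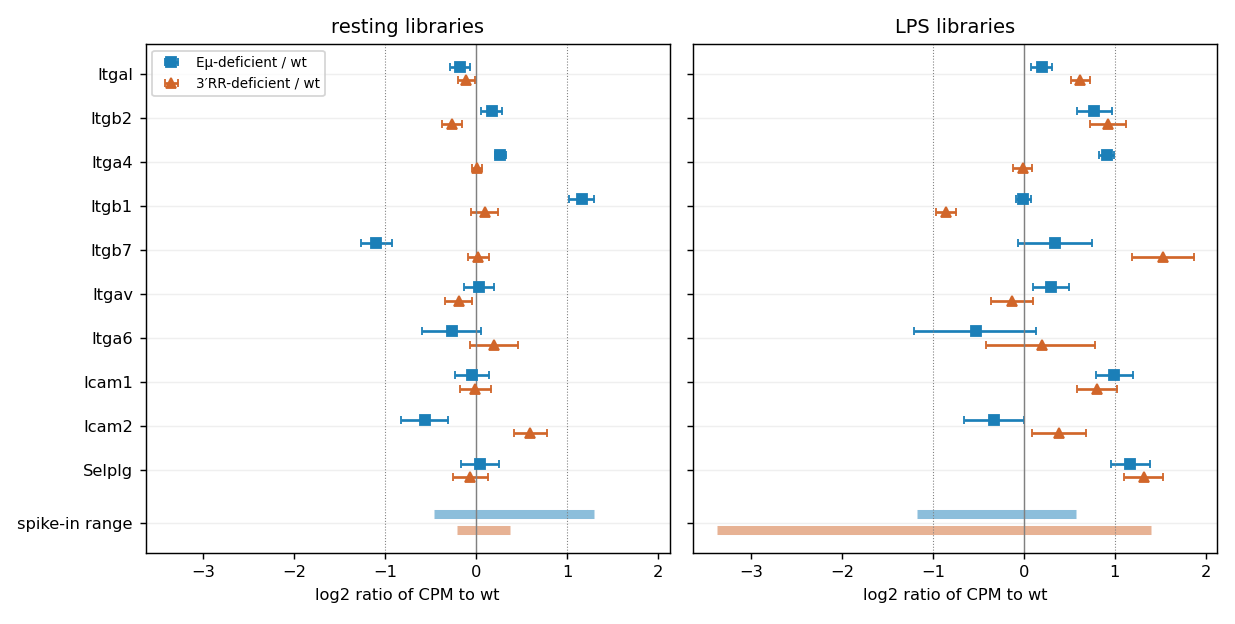
Log2 ratio of CPM to the wt library for each of the 10 genes in the resting (left) and LPS libraries (right), 1 library per group, with 95% intervals for counting error, dotted lines at -1 and 1, and bars at the bottom for the range of 35 spike-in ratios about their median. In the resting Eμ-deficient library Itgb1 and Itgb7 lie past the dotted lines. Selplg does so in both mutant LPS libraries, and Itgb7 in the 3′RR-deficient LPS library. The spike-in range of the 3′RR-deficient LPS library, from -3.37 to 1.40, holds all its ratios except that of Itgb7.

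Among the cell markers, B-cell genes were high in all libraries, with a summed level of 9 genes between 2961 and 3857 CPM at rest and between 1868 and 2221 CPM after LPS, where 4 of 9 were lower. Myeloid markers were lower after LPS for 12 of 12 genes, from between 182 and 500 CPM to between 11.6 and 34.0 CPM, with C1qa and C1qb at 0 in the wt LPS library. T-cell markers were lower for 9 of 11, from between 112 and 170 CPM to between 28.7 and 45.1 CPM, and marginal zone markers for 6 of 7, from between 838 and 1452 CPM to between 272 and 456 CPM. NK cell, platelet and stromal markers were lower for 4 of 5, 4 of 5 and 3 of 4 genes tested, and erythroid markers for 8 of 8. Of 5 plasma cell markers 2 were higher and 0 lower. Over all genes tested 19.7% were called higher and 21.1% lower. The markers that were lower fell together with Itgb2, Itga4, Itgb7, Itga6 and Icam2, which such cells can also express, and their part in the falls was not tested. In bulk RNA fewer cells of a type and less RNA per cell cannot be told apart.

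The resting Eμ-deficient library, which had the high Itgb1 and low Itgb7, also had the highest myeloid sum, 500 CPM beside 182 in wt, and the highest marginal zone sum, 1452 CPM beside 933 in wt. Its plasma cell markers summed to 2232 CPM beside 546 in wt, mostly through Jchain, and its erythroid markers to 20146 CPM beside 3356 in wt, with 6 of 8 called higher for the Eμ deletion. Fcer2a, which marks follicular B-cells, was at 64.2 CPM beside 119 in wt. It is 1 of the 9 B-cell genes, of which Ms4a1 and Cr2 were higher in this library than in wt and the others lower. Cd79a and Cd22, for example, were at 271 and 216 CPM beside 570 and 390 in wt. Cr2 (731 CPM beside 394 in wt) also counts in the marginal zone sum, in which Dtx1 was lower, at 204 CPM beside 266. Whether the cells that these markers stand for carried the Itgb1 and Itgb7 differences was not tested.

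Most other integrin subunits were also lower after LPS. Of 19, 13 could be tested, and 0 rose and 10 fell after LPS (9 without the 3′RR-deficient pair), with a median log2 fold change of -2.22. The share called was 76.9%, all of it lower, beside 40.8% of all genes tested called either way. Itga1, Itga8, Itga9, Itgad, Itgae, Itgax and Itgb5 had fewer than 10 counts in every LPS library. They passed the count filter through their resting libraries alone, so that a fall was the only call within reach. The split, the median and the share depend on this. Itgax, the α subunit of a β2 integrin of dendritic cells and some B-cells, had 653, 1016 and 879 counts in resting wt, Eμ-deficient and 3′RR-deficient cells and 6, 6 and 7 after LPS (log2 fold change -6.60, adjusted p = 4.39e-05). Itgad, an α subunit of splenic macrophages, had 145, 414 and 336 counts at rest and 0, 0 and 2 after LPS. Itga9 had 72, 151 and 142 counts at rest and 0, 5 and 3 after LPS. All 3 moved with the myeloid markers, and their source was not tested.

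Of 15 other ligands and selectins, 7 were tested, and 1 rose and 4 fell (1 and 3 without the 3′RR-deficient pair). The share called was 71.4%, beside 40.8% of all genes tested. Vcam1, the ligand of α4β1 on stromal cells and macrophages, went from 20.9, 135 and 48.9 CPM at rest to 0.05, 0.56 and 1.01 CPM after LPS (log2 fold change -7.04). Fn1, which encodes fibronectin, was also lower, at -5.86, as was Selp, which encodes P-selectin, a receptor of PSGL-1, at -3.08. Spp1, which encodes the secreted integrin ligand osteopontin, rose by 2.48 from 2, 4 and 4 counts to 14, 15 and 12. In wt, Eμ-deficient and 3′RR-deficient LPS libraries Vcam1 had 1, 6 and 9 counts, Fn1 4, 6 and 9, and Selp 1, 3 and 1. These genes passed the count filter through their resting libraries alone, and Spp1 passed it through its LPS libraries alone. For each of them the call made was the only one within reach, and the split and the share called depend on this. Madcam1, the ligand of α4β7, had at most 1 count in any library.

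A further list held regulators of integrin activity, both activators and inhibitors, with adaptors that tie integrins to actin. Of 38, 35 were tested, with 0 called higher and 16 lower (1 and 13 without the 3′RR-deficient pair) and a median of -0.60. The share called was 45.7%, all of it lower. Of all genes tested, 40.8% were called, 21.1% lower and 19.7% higher. The 16 include Sharpin, an inhibitor of integrin activation, Cytip, which restrains LFA-1 adhesion, and the cytokine gene Tgfb1, named here after their values were seen. The largest falls were those of Fyb, which encodes the adaptor ADAP (-4.07), Zyx, which encodes the focal adhesion protein zyxin (-2.14), and Actn1, which encodes an α-actinin (-2.09). Tln1, which encodes the talin that opens the integrin, and Fermt3, which encodes its co-activator kindlin-3, did not pass, at -0.74 and 0.29. Tln1 and Fermt3 were likewise chosen after their values were seen.

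Of 9 linkers of membrane proteins to actin and their partners, 2 were higher, 1 was lower and 6 were not called. That is 33.3% called in either direction, beside 40.8% of all genes tested. Spn, which encodes CD43, the antigen used to deplete other cells, rose by 1.65 on the log2 scale, and Rdx, which encodes radixin, by 0.87, while Ezr, which encodes ezrin, was lower at -0.91. The Ezr call was lost without the 3′RR-deficient pair, which left 2 higher and 0 lower. Of 12 enzymes that glycosylate or sulfate PSGL-1, 11 were tested, with 2 higher and 3 lower (3 and 3 without that pair). The share called was 45.5%, near the 40.8% of all genes tested. B4galt1, a galactosyltransferase, rose by 1.29 and Tpst1, a tyrosine sulfotransferase, by 1.03. Fut4, a fucosyltransferase, St3gal4, a sialyltransferase, and Gcnt1, which builds the core of the branched O-glycan, were lower at -1.71, -1.39 and -1.05. None of the genes of these 5 lists was called for either deletion, beside 0.678% (3′RR) and 1.16% (Eμ) of all genes tested. By edgeR's test of the Eμ deletion, Vcam1 and Fyb lay just past the threshold. Vcam1 had a log2 fold change of 2.64 (adjusted p = 0.0512) and Fyb one of 1.60 (adjusted p = 0.0576).

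**Figure D5:**
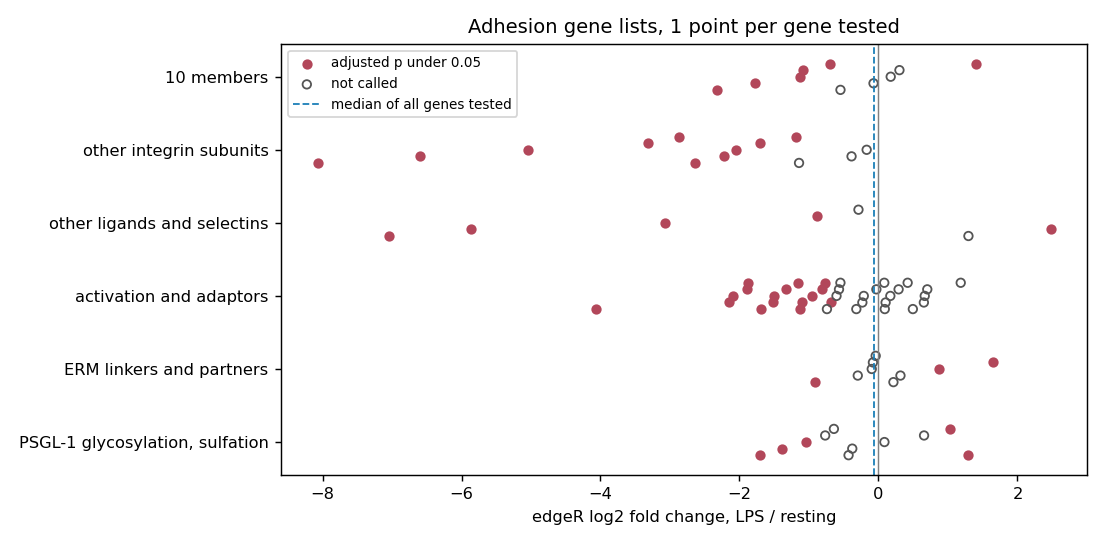
EdgeR log2 fold change (LPS to resting) of every tested gene of the 10 described here and of the 5 other adhesion lists, with filled points for an adjusted p under 0.05 and a dashed line at the median of all genes tested, -0.07. The other integrin subunits hold 10 filled points, all below 0, and the 10 genes 5 below and 1 above 0. Most of the filled points of the other integrin subunits are genes that passed the count filter through their resting libraries alone.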

How the data were processed

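Per the labels and the methods of the study, total RNA was depleted of ribosomal RNA, stranded libraries were sequenced as paired reads, and reads were mapped to mm10 with STAR 2.4.0a. The authors counted fragments per gene name with featureCounts (Subread 1.4.6-p1), multi-mapping reads included, and deposited these raw counts without normalization. Genes received between 9111974 and 21998587 counts per library, which sets the counting error. The 92 spike-in names took between 4.75% and 7.10% of all counts and stayed out of library sizes and tests. Exons antisense to a well expressed gene held a median of 0.482% of its level, so the counts were read as those of the sense strand.

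Counts were scaled with the TMM method and tested with edgeR 4.0.16 (R 4.3.3) by the quasi-likelihood test with terms for genotype and state, over the 14600 genes that reached 10 counts in 2 or more libraries. P-values were adjusted after Benjamini and Hochberg, and calls were made at 0.05. The script was tested on simulated data. Ratios of single libraries carry Clopper-Pearson 95% intervals (scipy 1.17.1), for counting error only. Lengths and coordinates come from GENCODE M21 (GRCm38), promoters from RefSeq (GRCm38.p6). The genotype is the block that pairs a resting with an LPS library, and deviations of the pairs correlated at 0.15 in wt, 0.50 in Eμ-deficient and 0.43 in 3′RR-deficient cells. The 10 genes, the lists and the alternatives were chosen with earlier results of these data known. Alternatives were other scalings and filters, DESeq2, removal of the trends on GC content and transcript length, fits to the genotypes compared, no genotype term and leaving out each pair. In other lists at most the 3 largest rises and falls among called genes are named, unless stated. The order by the longest transcript, the counts without the 3′RR-deficient pair and the erythroid list were added after seeing the data.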

Additional observations from a re-analysis of the deposited data

Results flagged for a closer look

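14 ratios of 4 genes had opposite signs in 2 genotypes or in the 2 states, with counting intervals that exclude 0 on both sides. Each comes from single libraries, so these differences were not tested. For Itgal the log2 ratio of LPS to resting was -0.19 in wt, 0.18 in Eμ-deficient and 0.54 in 3′RR-deficient cells. With the trend on GC content removed these were 0.16, 0.12 and 0.40, all of 1 sign. The ratio of Itgal to wt was -0.17 at rest and 0.19 after LPS in the Eμ-deficient libraries, and -0.11 at rest and 0.62 after LPS in the 3′RR-deficient libraries. With that trend removed the Eμ-deficient ratio at rest was 0.02, and the 3′RR-deficient ratios were -0.07 and 0.14. The ratio of Itgb2 to wt in the 3′RR-deficient libraries was -0.27 at rest and 0.93 after LPS. For Icam1 the log2 ratio of LPS to resting was -0.69 in wt and 0.35 in Eμ-deficient cells. In 3′RR-deficient cells it was 0.12, with an interval that held 0, and -0.02 with that trend removed. For Selplg it was -0.54 in wt, 0.59 in Eμ-deficient and 0.84 in 3′RR-deficient cells, and the wt LPS library, at 16.6 CPM, was the lowest of the 6 for this gene. For Itgb2, Icam1 and Selplg the signs stayed opposite with the trend removed.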

How the results depend on the processing

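Of 300 alternative values for the fitted genes, 280 kept their direction and side of the threshold, 8 lost a call, 2 gained one and 10 changed sign. Without 1 genotype pair, between 1876 and 3435 genes were called higher and between 2129 and 3396 lower after LPS, and of the 10 genes between 1 and 2 were called higher and between 3 and 5 lower. The lowest counts over all genes came without the Eμ-deficient pair (1876 and 2129), and 3 of the 10 genes were called lower without either mutant pair. With a filter on all 6 libraries 1992 genes were called lower after LPS. Without the replicate block (genotype), 2701 genes were called higher and 2721 lower after LPS, and Icam2 was the 1 of the 10 genes that lost its call.

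Counts for the deletions depended on the settings. For the 3′RR deletion 25 genes were called higher and 74 lower, beside 159 and 199 without a filter, 7 and 24 with a filter on all 6 libraries, 59 and 130 with only the genotypes compared and 56 and 122 with DESeq2. For the Eμ deletion 133 were called higher and 37 lower, beside 530 and 110, 69 and 10, 369 and 76, and 277 and 63. None of the 10 genes was called in any of these fits.

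Most signs that changed were of values near 0. After LPS, leaving out 1 genotype pair gave Itgal values from -0.0058 (without the 3′RR-deficient pair) to 0.36 and Icam1 values from -0.28 to 0.24 (without the wt pair), and Icam1 was at 0.015 with the GC trend removed. For the 3′RR deletion Itga4 was at 0.24 with the GC and 0.012 with the length trend removed, and Itgav at 0.012 with the GC trend removed. For the Eμ deletion Itgal was at 0.0032 with scaling without immunoglobulin genes, 0.052 and 0.0047 with the GC and length trends removed and 0.010 with only the genotypes compared. The ratios of single libraries named next had counting intervals that excluded 0. Those of Eμ-deficient to wt at rest became 0.025 for Itgal and -0.097 for Itga4 (0.27 without this correction) with the GC trend removed. That of Itgb2 became -0.022 with total counts. The ratio of Icam2 in the 3′RR-deficient LPS library went from 0.39 to -0.13 with the GC trend removed. That of Itgal from rest to LPS in wt became 0.16 and 0.029 with the GC and length trends removed. Ratios whose interval held 0 changed sign too. With the GC trend removed, the ratio to wt in the 3′RR-deficient LPS library went from -0.016 to 0.63 for Itga4 and from -0.13 to 0.28 for Itgav. The cause was not tested.

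Of 490 such ratios, 429 moved by less than their counting interval. 1 library per group limits every ratio between genotypes.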
